A study of Homo sapiens with 6 samples.

Results

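The genes described here are 10 transcription factors of the AP-1 and immediate-early classes, namely FOS, FOSB, FOSL1, FOSL2, JUN, JUNB, JUND, ATF3, EGR1 and MAFF. They were selected by gene symbol, with no threshold on their values, and are 10 of the 53826 entries in the deposited expression tables. Each symbol occurred once, and no member lay at the lowest recorded value of 1 TPM in any library. RNA-seq was performed on 6 libraries of polyadenylated RNA from PK-1 and Panc-1, which are 2 established human lines of pancreatic ductal adenocarcinoma (PDAC). Each line gave 1 control library, 1 from cells treated for 24 h with RARγi-1 (LY2955303) and 1 from cells treated for 24 h with RARγi-2 (MM11253). Both compounds are antagonists of retinoic acid receptor gamma (RARγ), a nuclear receptor that switches genes on when it binds retinoic acid. The study asked which genes respond when RARγ signaling is blocked.

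Several features of these libraries bear on every value below. The treatment entry of both RARγi-2 libraries in the sample labels reads RARγi-1, whereas their titles name RARγi-2. They were assigned by title. The RARγi-1 fold changes as deposited stand without them, but the set of entries tested, the rescaling and the spread given below draw on them. The doses and the vehicle used for RNA-seq are not given in the sources used here, so the values of the 2 inhibitors are set side by side and not compared as compounds. The treatment and the harvest time of the control cells are likewise not given. With 1 library per condition there is no replicate check and no p-value, and the sequencing depth behind the TPM values (transcripts scaled to a fixed library total, a unit that corrects for gene length) is unknown. As a yardstick, the 2 treated libraries of a line differed from each other with a spread of 0.41 log2 units in PK-1 cells and 0.32 in Panc-1 cells, a figure that also contains any real difference between the inhibitors. The spread compares the same entry between libraries. Where different genes of a library are compared below, it is only a rough guide and does not cover errors between genes. Between 13149 and 13652 entries lay above 1 TPM per library.

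AP-1 is a dimer of basic leucine zipper (bZIP) proteins, built from a JUN protein and a FOS, JUN or ATF protein, that binds short DNA elements in promoters and enhancers. Immediate-early genes are switched on within minutes of growth factors or stress, through mitogen-activated protein kinase (MAPK) cascades and without new protein synthesis. In pancreatic cancer AP-1 is known as one of the effectors of RAS signaling.

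In the control libraries FOSL1 was the most abundant of the 10 transcripts in both lines, at 229 TPM in PK-1 cells and 619 TPM in Panc-1 cells. FOS was the least abundant, at 2.76 TPM in PK-1 cells and 1.34 TPM in Panc-1 cells. The PK-1 control followed the order FOSL1, JUNB, JUN, FOSL2, JUND, MAFF, EGR1, ATF3, FOSB and FOS. In this order FOSL2 and JUND, EGR1 and ATF3, and ATF3 and FOSB lay closer together than the 0.41 spread. The Panc-1 control followed the order FOSL1, JUN, JUNB, JUND, FOSL2, MAFF, EGR1, ATF3, FOSB and FOS, in which JUNB and JUND, FOSL2 and MAFF, EGR1 and ATF3, and FOSB and FOS were closer than the 0.32 spread. Between the controls, members differed in both directions. With 1 control library per line, no spread between lines was available to set beside these differences. The differences in log2(TPM + 1), PK-1 minus Panc-1, ran from -1.43 for FOSL1 to 1.55 for FOSL2.

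Under RARγ inhibition most of the 10 factors had higher transcript levels than the control of the same line. A change is called here when (TPM + 1) differed from the control by more than 2-fold, and fold changes are given as log2 of that ratio, which understates the change of low genes. In PK-1 cells RARγi-1 put 6 members past 2-fold up, where 9.05% of the 14269 entries tested did so, and no member past 2-fold down, where 4.85% of entries did. RARγi-2 in PK-1 cells put 7 members up against 11.9% of entries, and none down against 12.3%. In Panc-1 cells, with 14184 entries tested, RARγi-1 put 4 members up against 7.3% of entries, and none down against 5.96%. RARγi-2 in Panc-1 cells put 6 members up against 8.34% of entries, and none down against 11%. The median log2 fold change of the members was 1.05 and 1.74 in PK-1 cells under RARγi-1 and RARγi-2, beside 0.13 and 0.01 over all entries tested. In Panc-1 cells it was 0.91 and 1.12, beside 0.08 and -0.01. The 2 treated libraries of a line share 1 control, so an unusual control library would move both in the same way.

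**Figure D1:**
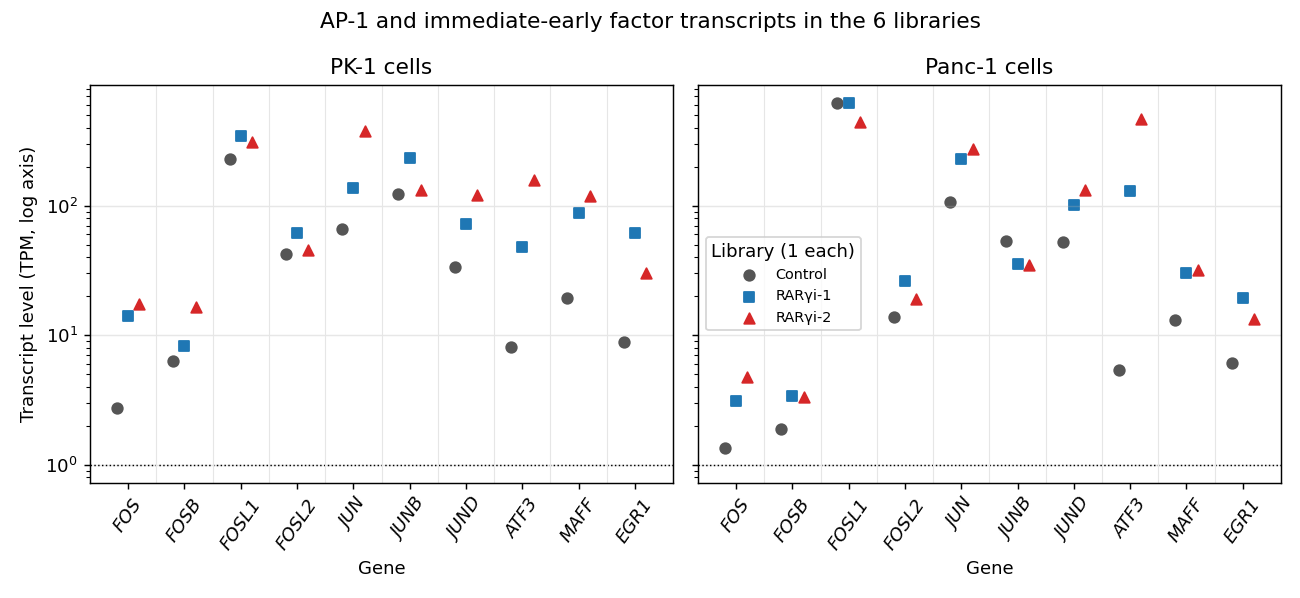
Transcript level of each of the 10 factors in TPM (log axis) in PK-1 cells (left) and Panc-1 cells (right), with 1 point per library, control as circles, RARγi-1 as squares and RARγi-2 as triangles; the dotted line marks the lowest recorded value, 1 TPM. ATF3, MAFF, EGR1, FOS, FOSB, JUN, JUND and FOSL2 lie above their control in all 4 treated libraries, whereas JUNB in both treated Panc-1 libraries and FOSL1 in the Panc-1 RARγi-2 library lie below it. In PK-1 cells FOSB with RARγi-1 and FOSL2 with RARγi-2 are within the 0.41 spread of the control.

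The TPM scale itself entered some of these calls. Over the 11269 entries above 1 TPM in all libraries, median-ratio rescaling shifted the log2 fold changes by -0.13 for RARγi-1 in PK-1 cells and -0.10 for RARγi-1 in Panc-1 cells, and by 0.03 and 0.01 for RARγi-2. After rescaling, 4 members remained past 2-fold up with RARγi-1 in PK-1 cells and 3 in Panc-1 cells, since JUN in both lines and JUND in PK-1 cells came to lie just under 2-fold. Over all entries tested the share past 2-fold up was then 6.85% and 5.94%. The counts with RARγi-2 stayed at 7 and 6. Over all entries the upward share of the calls for RARγi-1 in PK-1 cells was 65.1%, and 52.7% after rescaling, and for RARγi-1 in Panc-1 cells it went from 55.1% to 45.9%.

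ATF3 showed the largest change of the 10 factors in 3 of the 4 comparisons. It is a stress-inducible bZIP protein of the ATF/CREB family that represses or activates transcription depending on its partner, and its gene lies on the forward strand at chr1:212565334-212620777 (GRCh38, GENCODE 29). In PK-1 cells ATF3 stood at 8.03 TPM in the control library, at 48.3 TPM after RARγi-1 and at 157 TPM after RARγi-2. The Panc-1 values of ATF3 in the same order were 5.38, 129 and 469 TPM. All 4 treated libraries thus lay far above both controls, by 6.01-fold and 19.6-fold in PK-1 cells and by 24.0-fold and 87.2-fold in Panc-1 cells on the TPM scale. On the log2(TPM + 1) scale the differences from control were 2.45 and 4.13 in PK-1 cells and 4.35 and 6.20 in Panc-1 cells. These placed ATF3 84th and 26th from the top of the 14269 PK-1 entries, and 7th and 1st of the 14184 Panc-1 entries. In the Panc-1 RARγi-2 library ATF3 was the most abundant of the 10 transcripts, although its distance to FOSL1 at 438 TPM was within the spread.

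Upstream of 1 of the annotated ATF3 start sites, the promoter sequence carries a C/EBP-ATF response element, the kind of composite site to which the stress factors ATF4 and CHOP bind. It is shown because genes downstream of ATF4 and CHOP are counted later on. The stretch runs from -220 to -161 relative to that start, at chr1:212565187-212565246 on the forward strand of GRCh38.p14 (RefSeq), with the element in capitals.
ATF3: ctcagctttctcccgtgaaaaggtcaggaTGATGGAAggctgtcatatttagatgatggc

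EGR1, a zinc finger factor and the archetype of a growth factor-induced immediate-early gene, passed 2-fold up in all 4 comparisons. It lies on the forward strand at chr5:138465490-138469315. The PK-1 control held 8.81 TPM of EGR1, the RARγi-1-treated library 61.5 TPM and the RARγi-2-treated library 30.2 TPM. The PK-1 log2 fold changes were 2.67 and 1.67. EGR1 in Panc-1 cells was at 6.09 TPM in the control, 19.5 TPM after RARγi-1 treatment and 13.4 TPM after RARγi-2 treatment. The log2 fold changes of the Panc-1 comparisons were 1.53 and 1.02. In both lines the RARγi-1 library was the highest, unlike ATF3. With RARγi-1 in PK-1 cells EGR1 had the largest change of the 10 members and ranked 57th of all entries tested. The Panc-1 RARγi-2 value lay only just past 2-fold.

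The EGR1 promoter is the textbook case of control by serum response factor (SRF), which binds a motif named the CArG box together with ELK proteins after MAPK signaling. It is shown because the transcripts of these regulators are described later on. From -120 to -61 before the EGR1 start, at chr5:138465359-138465418 on the forward strand of GRCh38.p14 (RefSeq), it holds 2 CArG boxes, in capitals, whose first bases lie at -105 and -83.
EGR1: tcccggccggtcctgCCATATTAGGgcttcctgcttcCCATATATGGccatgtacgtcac

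MAFF, a small MAF protein that lacks an activation domain and pairs with NRF and BACH proteins at antioxidant response elements, also passed 2-fold up in all 4 comparisons. It lies on the forward strand at chr22:38200767-38216511. In PK-1 cells MAFF stood at 19.4 TPM in the control library, at 87.4 TPM after RARγi-1 and at 119 TPM after RARγi-2. The Panc-1 values of MAFF in the same order were 13.1, 30.2 and 31.6 TPM. Every treated library lay above both controls. Log2 fold changes of MAFF were 2.11 and 2.55 for the PK-1 comparisons and 1.15 and 1.21 for the Panc-1 comparisons. PLA2G6, a phospholipase gene that overlaps MAFF on the opposite strand, ran from 1.09 to 3.11 TPM. Whether reads were counted by strand is not given in the sources used here, and its part in the MAFF values was not tested.

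The JUN proteins are the obligate partners of the FOS proteins. JUN itself, the most strongly activating of them, passed 2-fold up in all 4 comparisons as deposited. It lies on the reverse strand at chr1:58780788-58784327. The PK-1 control held 65.8 TPM of JUN, the RARγi-1-treated library 136 TPM and the RARγi-2-treated library 378 TPM. JUN in Panc-1 cells was at 107 TPM in the control, 228 TPM after RARγi-1 treatment and 273 TPM after RARγi-2 treatment. All 4 treated libraries exceeded both controls. For JUN the PK-1 log2 fold changes were 1.03 and 2.50 and the Panc-1 log2 fold changes 1.08 and 1.34, of which the RARγi-1 values became 0.90 and 0.98 after rescaling. In the PK-1 RARγi-2 library JUN was the most abundant of the 10 transcripts, although FOSL1 at 308 TPM was within the spread.

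JUND, a JUN protein known for steady expression in resting cells, lies on the reverse strand at chr19:18279760-18281622. In PK-1 cells JUND stood at 33.8 TPM in the control library, at 71.5 TPM after RARγi-1 and at 121 TPM after RARγi-2. The Panc-1 values of JUND in the same order were 52.1, 101 and 131 TPM. Each treated library again lay above both controls. Log2 fold changes of JUND came to 1.06 and 1.80 for PK-1 and 0.94 and 1.32 for Panc-1, so that 3 of the 4 passed 2-fold. The PK-1 RARγi-1 value became 0.93 after rescaling.

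The promoters of MAFF and JUND both hold a full cAMP response element, to which ATF and CREB proteins and JUN-ATF dimers bind, and the core of an antioxidant response element, to which small MAF dimers bind. They are shown because these are the classes of factor described here. The MAFF stretch runs from -140 to -31, at chr22:38201854-38201963 on the forward strand, with an antioxidant core at -122, read on the opposite strand, and a cAMP response element at -54. The JUND stretch runs from -240 to -81, at chr19:18281703-18281862 on the reverse strand, with antioxidant cores at -230 and, read on the opposite strand, at -90, and a cAMP response element at -200. Both are GRCh38.p14 (RefSeq), written along the strand of the gene with these elements in capitals.
MAFF: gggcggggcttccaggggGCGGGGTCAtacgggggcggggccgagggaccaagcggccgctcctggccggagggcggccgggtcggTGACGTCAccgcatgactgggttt
JUND: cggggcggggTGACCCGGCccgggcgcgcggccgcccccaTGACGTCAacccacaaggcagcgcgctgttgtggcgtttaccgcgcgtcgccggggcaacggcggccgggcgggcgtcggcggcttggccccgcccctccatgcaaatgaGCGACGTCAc

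JUNB, a JUN protein that often acts as a brake on JUN, departed from the other JUN genes. It lies on the forward strand at chr19:12791496-12793315. The PK-1 control held 122 TPM of JUNB, the RARγi-1-treated library 235 TPM and the RARγi-2-treated library 132 TPM. JUNB in Panc-1 cells was at 53.4 TPM in the control, 35.4 TPM after RARγi-1 treatment and 35.0 TPM after RARγi-2 treatment. JUNB was thus above its control in the PK-1 RARγi-1 library, within the spread of it in the PK-1 RARγi-2 library, and below it in both treated Panc-1 libraries. Its log2 fold changes were 0.94, 0.11, -0.58 and -0.60 in that order, and none passed 2-fold. HOOK2, a gene that overlaps JUNB on the opposite strand, measured 32.3, 50.7 and 64.0 TPM in the 3 PK-1 libraries and 7.67, 5.38 and 2.49 TPM in the 3 Panc-1 libraries, in the order control, RARγi-1 and RARγi-2. Its part in the JUNB values was not tested.

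FOS, the prototype immediate-early gene whose transcript and protein are both short-lived, lies on the forward strand at chr14:75278774-75282230. In PK-1 cells FOS stood at 2.76 TPM in the control library, at 14.0 TPM after RARγi-1 and at 17.4 TPM after RARγi-2. The Panc-1 values of FOS in the same order were 1.34, 3.13 and 4.75 TPM. FOS was thus higher in every treated library than in its control, but the Panc-1 values all lay near the lowest recorded level. On TPM alone the PK-1 ratios to control were 5.09 and 6.29. The log2 fold changes of FOS on TPM + 1 passed 2-fold in both PK-1 comparisons and were 0.82 and 1.30 for Panc-1. Without the added 1 TPM the first Panc-1 value was 1.23 and would have passed 2-fold.

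FOSB, whose product also exists as a truncated form that accumulates under repeated stimulation, lies on the forward strand at chr19:45467995-45475179. The PK-1 control held 6.34 TPM of FOSB, the RARγi-1-treated library 8.27 TPM and the RARγi-2-treated library 16.6 TPM. FOSB in Panc-1 cells was at 1.88 TPM in the control, 3.38 TPM after RARγi-1 treatment and 3.34 TPM after RARγi-2 treatment. Only the PK-1 RARγi-2 library stood past 2-fold, with a log2 fold change of 1.26, whereas the other 3 values were 0.34, 0.61 and 0.59. ERCC1, a DNA repair gene overlapping FOSB on the opposite strand, was far more abundant at 62.3 to 108 TPM. Its part in the FOSB values was not tested.

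FOSL1 encodes FRA-1, the FOS protein associated with RAS-driven carcinoma cells, and lies on the reverse strand at chr11:65892049-65900573. In PK-1 cells FOSL1 stood at 229 TPM in the control library, at 346 TPM after RARγi-1 and at 308 TPM after RARγi-2. The Panc-1 values of FOSL1 in the same order were 619, 616 and 438 TPM. The treated libraries were thus above the control in PK-1 cells, and in Panc-1 cells 1 was level with the control and 1 below it. Over the 4 comparisons its log2 fold changes were 0.59, 0.43, -0.01 and -0.50, and none passed 2-fold.

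FOSL2 encodes FRA-2, a close relative of FRA-1, and lies on the forward strand at chr2:28392448-28417312. The PK-1 control held 42.5 TPM of FOSL2, the RARγi-1-treated library 61.4 TPM and the RARγi-2-treated library 45.7 TPM. FOSL2 in Panc-1 cells was at 13.9 TPM in the control, 26.4 TPM after RARγi-1 treatment and 19.1 TPM after RARγi-2 treatment. In both lines the RARγi-1 library was the highest and the control the lowest. The PK-1 RARγi-2 library lay within the spread of its control. FOSL2 log2 fold changes were 0.52, 0.10, 0.88 and 0.43, and none passed 2-fold.

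**Figure D2:**
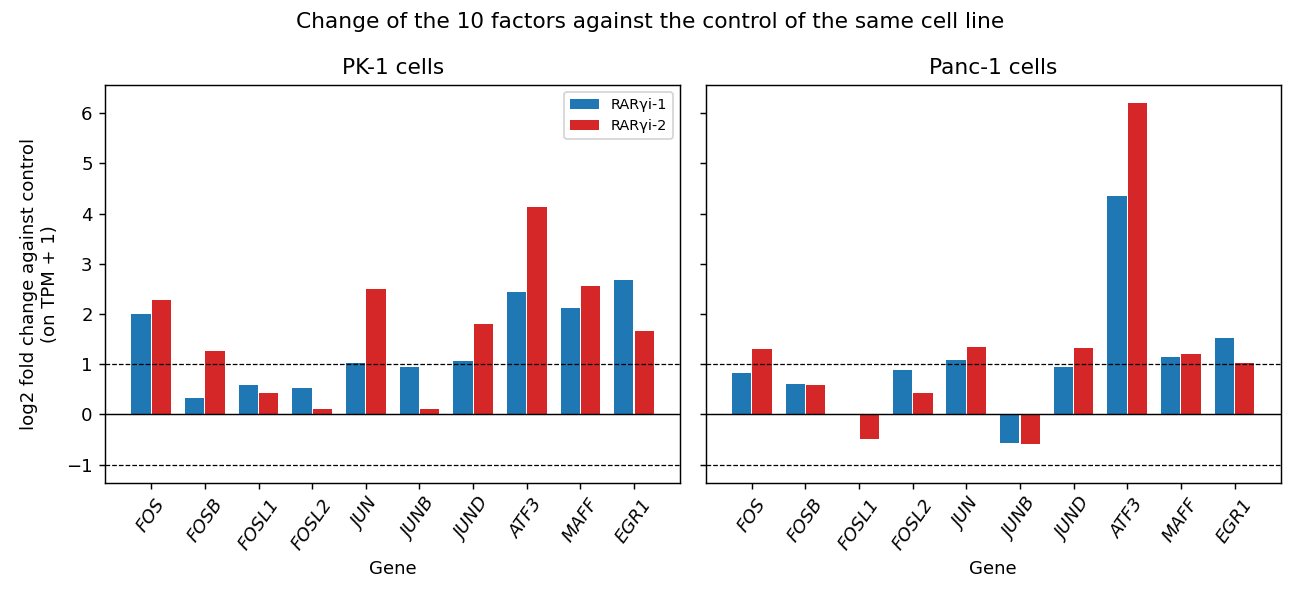
Log2 fold change of (TPM + 1) in each treated library against the control of its line, for the 10 factors in PK-1 cells (left) and Panc-1 cells (right), with 1 bar per library and dashed lines at 2-fold. ATF3, MAFF, EGR1 and JUN pass 2-fold in all 4 comparisons (JUN with RARγi-1 only before rescaling), and JUNB and FOSL1 point in different directions in the 2 lines, with FOSL1 at -0.01 for RARγi-1 in Panc-1 cells, too small to see as a bar.

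The makeup of the FOS and JUN subfamilies differed in how far it moved. FOS subfamily transcripts summed to 280.9, 429 and 388 TPM in the PK-1 control, RARγi-1 and RARγi-2 libraries and to 636, 649 and 466 TPM in the Panc-1 libraries. FOSL1 made up 81.6%, 80.5% and 79.5% of that sum in PK-1 cells and 97.3%, 94.9% and 94.2% in Panc-1 cells. FOS itself went from 0.98% to 3.27% and 4.48% in PK-1 cells and from 0.21% to 0.48% and 1.02% in Panc-1 cells, so FOSL1 remained the main FOS subfamily transcript in all 6 libraries. JUN subfamily transcripts summed to 222, 442 and 629.9 TPM in PK-1 cells and to 213, 364 and 439 TPM in Panc-1 cells. The JUNB share was 55.1%, 53.1% and 20.9% in PK-1 cells and 25.1%, 9.73% and 7.96% in Panc-1 cells. The JUN share was 29.7%, 30.7% and 60.0% in PK-1 cells and 50.4%, 62.5% and 62.1% in Panc-1 cells. JUN therefore took over from JUNB as the main JUN subfamily transcript in the PK-1 RARγi-2 library, whereas in Panc-1 cells it already held that place in the control.

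**Figure D3:**
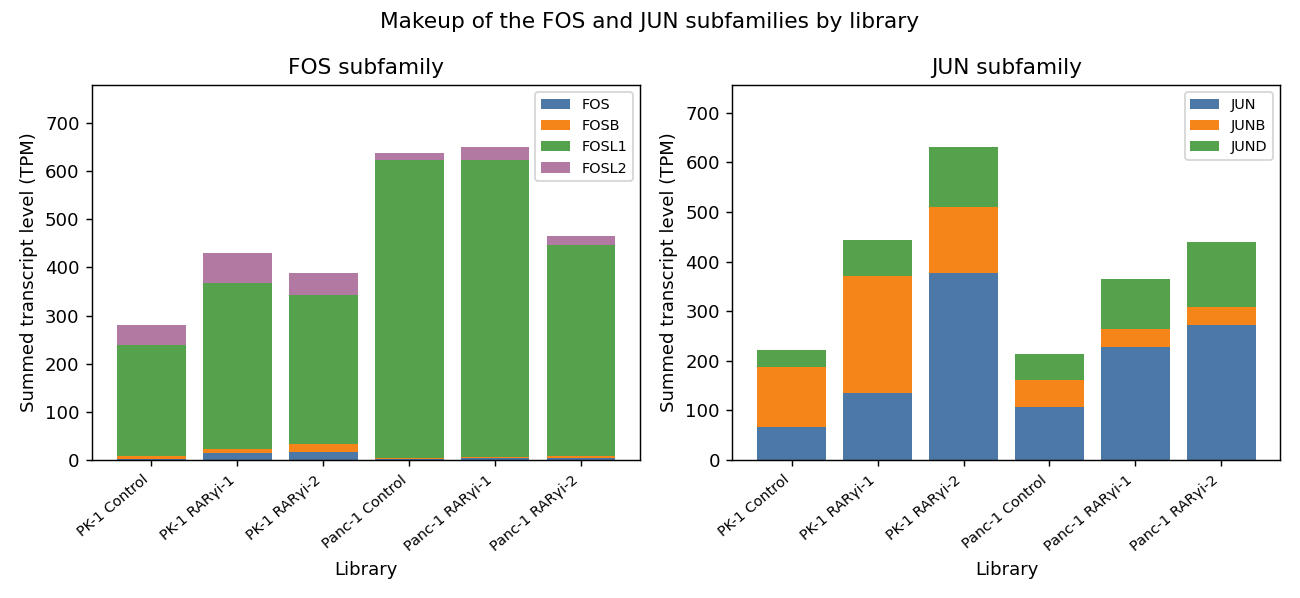
Summed transcript level (TPM) of the FOS subfamily (left) and the JUN subfamily (right) in each of the 6 libraries, stacked by gene. FOSL1 fills 79.5% to 97.3% of the FOS subfamily bars, and the JUN part of the JUN subfamily bar grows from 29.7% to 60.0% between the PK-1 control and RARγi-2 libraries.

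Promoter windows, from 250 bases before to 50 after an annotated start, were found for 9 of the 10 members (11 windows, RefSeq GRCh38.p14). Both strands were searched, and 5 members held at least 1 of the motifs sought. The share of all windows holding any of these motifs was not computed, so this count has no background beside it. The AP-1 site TGACTCA occurred in 1 member window, that of FOSL2 at +5, and in 4.95% of the 35116 windows of all genes. The cAMP response element TGACGTCA, found in JUND and MAFF, occurred in 1.85% of all windows. The C/EBP-ATF response element TGATGNAA, found in ATF3, occurred in 3.62%, and the CArG box, found in EGR1, in 1.29%. The EGR1 window also held an EGR site, GCGNGGGCG, at -198, a motif present in 9.43% of all windows. The antioxidant core TGACNNNGC is looser, at 13.3% of all windows, and can overlap with the AP-1 site. These matches describe letters in the reference sequence and do not show binding.

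Among 10629 entries reaching 10 TPM in at least 1 library, the genes whose 4 log2 fold changes lay nearest to those of the members were identified by Euclidean distance. The genes nearest to JUN were OCLN (distance 0.38), LPIN2 (0.49) and GLIDR (0.51). MAFF had the closest neighbours, LINC00963 at 0.26, NBR2 at 0.27 and DLGAP1-AS2 at 0.35. The genes nearest to EGR1 were ERN1 at 0.54, OPLAH at 0.62 and ERRFI1 at 0.64. The genes nearest to ATF3 were BEX4, BEX2 and HMOX1, at 1.33, 1.56 and 1.57. This distance grows with the size of the changes, so larger distances for ATF3 do not show a more distinct pattern. BEX4, the nearest, had log2 fold changes of 2.97, 3.49, 4.89 and 5.32. HMOX1, which encodes heme oxygenase and is a classic antioxidant response gene, had log2 fold changes of 2.93, 4.18, 5.84 and 6.16, beside 2.45, 4.13, 4.35 and 6.20 for ATF3.

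Other genes of the pathway were followed as lists, of which only the genes above 1 TPM in a line were counted there. In the kinase cascades that phosphorylate JUN and the ELK proteins (21 genes, 19 above 1 TPM in each line), transcript levels mostly stayed within 2-fold. Most of all entries tested also stayed within 2-fold. None of the 19 passed 2-fold in PK-1 cells with either inhibitor. Over all entries in PK-1 cells 9.05% were up and 4.85% down with RARγi-1, and 11.9% up and 12.3% down with RARγi-2. In Panc-1 cells 2 were up (MAPK13 and MAP3K5) and 1 down (MAP2K3) with RARγi-1, and 0 up and 2 down (MAP2K3 and MAPK11) with RARγi-2. Over all entries in Panc-1 cells 7.3% were up and 5.96% down with RARγi-1, and 8.34% up and 11% down with RARγi-2. The counts of the lists below can be set beside the same shares. MAP2K3, which activates p38 kinases, measured 107 TPM in the Panc-1 control and 35.1 and 32.9 TPM in the treated Panc-1 libraries. MAPK13, a p38 kinase, measured 1.91 TPM in the Panc-1 control and 7.75 and 4.28 TPM in the treated libraries. These are transcript levels and say nothing of kinase activity.

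The dual-specificity phosphatases (8 genes, 7 above 1 TPM in each line), which switch MAPKs off and are themselves immediate-early or delayed-early genes, were mostly higher than the control, with 6 or 7 of the 7 above it in each comparison. The share of all entries tested that lay above the control was not computed, so these counts have no background beside them. With RARγi-1 in PK-1 cells DUSP4 had a log2 fold change of only 0.10, within the spread, and -0.02 after rescaling. Past 2-fold up were 4 with RARγi-1 and 4 with RARγi-2 in PK-1 cells, and 2 and 4 in Panc-1 cells, with DUSP2, at 8.45, 2.67 and 1.70 TPM, past 2-fold down in both Panc-1 comparisons. DUSP1 and DUSP5 were up in all 4 comparisons. DUSP1, which acts mainly on p38 and JNK, measured 21.9 TPM in the PK-1 control and 63.1 and 231 TPM with RARγi-1 and RARγi-2, and 54.1 TPM in the Panc-1 control and 124 and 169 TPM in the treated libraries. DUSP5, a nuclear phosphatase of ERK, measured 97.8, 410 and 430 TPM in the PK-1 libraries and 51.0, 379 and 202 TPM in the Panc-1 libraries. The RARγi-2 library was the highest for DUSP1 in both lines, and the RARγi-1 library for DUSP5 in Panc-1 cells.

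SRF, the ELK factors and the NAB corepressors of EGR proteins (6 genes, all above 1 TPM) included none past 2-fold up in any comparison. With RARγi-2, 1 was past 2-fold down in PK-1 cells (NAB1) and 3 in Panc-1 cells (NAB1, NAB2 and ELK3), and with RARγi-1 none was. After rescaling NAB1 (-1.06) and ELK3 (just past 2-fold) were also down with RARγi-1 in Panc-1 cells. NAB1 measured 26.0, 25.2 and 10.4 TPM in PK-1 cells and 23.9, 11.7 and 8.25 TPM in Panc-1 cells in the order control, RARγi-1 and RARγi-2. ELK3 measured 23.8, 20.0 and 11.4 TPM in PK-1 cells and 23.6, 12.1 and 9.50 TPM in Panc-1 cells, and as deposited passed 2-fold down in the Panc-1 RARγi-2 comparison alone. With RARγi-2 in PK-1 cells the log2 fold change of ELK3 was -0.998, only just short of 2-fold. ELK4 had log2 fold changes of 0.53, 0.08, 0.45 and 0.30.

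Among proteins that bind AU-rich elements of short-lived transcripts such as FOS (6 genes), ZFP36 was past 2-fold up in all 4 comparisons. ZFP36, which speeds the decay of such transcripts, measured 57.7, 149 and 191 TPM in PK-1 cells and 267, 586 and 536 TPM in Panc-1 cells. The other 5 included 4 past 2-fold down with RARγi-2 in PK-1 cells and none in the remaining comparisons. After rescaling HNRNPD was no longer past 2-fold there (-0.99), and KHSRP passed 2-fold down with RARγi-1 in PK-1 cells (-1.08). KHSRP, a decay factor, went from 124 TPM in the PK-1 control to 63.8 and 51.8 TPM, and ELAVL1, a stabilizing protein, from 35.8 to 22.8 and 16.7 TPM.

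The other bZIP factors that can pair with the members (19 genes, 14 above 1 TPM in each line) were mixed. In PK-1 cells 6 were past 2-fold up and 1 down with each inhibitor, and in Panc-1 cells 4 up and 2 down with RARγi-1 and 3 up and 1 down with RARγi-2. After rescaling 5 were up with RARγi-1 in PK-1 cells and 3 in Panc-1 cells. JDP2, a repressor that pairs with JUN, measured 5.95, 15.1 and 15.9 TPM in PK-1 cells and 7.16, 18.5 and 16.7 TPM in Panc-1 cells. ATF4, the translation-controlled stress factor, measured 472, 1138 and 1394 TPM in PK-1 cells and 312, 618 and 821 TPM in Panc-1 cells. MAFG, a small MAF protein like MAFF that was picked for mention after its values were seen, was the other gene of the list up in all 4 comparisons, with log2 fold changes of 1.13, 1.24, 1.08 and 1.18, of which 1.08 (RARγi-1 in Panc-1 cells) became 0.99 after rescaling. In the opposite direction, NFE2L3 had log2 fold changes of -0.45, -1.63, -1.56 and -1.98 and ATF5 of -1.20, -0.85, -1.01 and -0.68.

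Other immediate-early genes (15 genes, 13 above 1 TPM in PK-1 cells and 11 in Panc-1 cells) included 4 and 5 past 2-fold up and none down in PK-1 cells, and 3 and 3 up in Panc-1 cells with 1 down under RARγi-2. After rescaling 2 were up with RARγi-1 in Panc-1 cells. EGR3 and NR4A3, relatives of EGR1 and of the orphan receptor NR4A1, were listed at 1 TPM in all 6 libraries, and EGR2 did not exceed 1.71 TPM. These 3 genes were picked for mention after their values were seen. KLF4 measured 33.8, 158 and 173 TPM in PK-1 cells and 2.87, 7.84 and 11.8 TPM in Panc-1 cells, and KLF2 2.35, 3.90 and 31.6 TPM in PK-1 cells and 2.90, 6.09 and 28.1 TPM in Panc-1 cells. IER5L went the other way, with log2 fold changes of -0.24, -0.54, -0.66 and -1.68.

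Textbook AP-1 target genes (21 genes, 18 above 1 TPM in PK-1 cells and 15 in Panc-1 cells) moved in both directions. In PK-1 cells 11 were past 2-fold up and 1 down with RARγi-1, and 9 up and 3 down with RARγi-2. After rescaling 9 were up with RARγi-1 in PK-1 cells, since LIF (0.98) and TIMP1 (0.92) came to lie under 2-fold. In Panc-1 cells 5 were up and 2 down with RARγi-1, and 3 up and 3 down with RARγi-2. The list medians were 1.14 and 0.95 in PK-1 cells and 0.18 and -0.05 in Panc-1 cells, beside 0.13, 0.01, 0.08 and -0.01 over all entries tested. MMP1, the interstitial collagenase and a classic AP-1 target, measured 37.7, 362 and 1180 TPM in PK-1 cells and 11.4, 55.9 and 123 TPM in Panc-1 cells. VEGFA, the angiogenic growth factor, measured 42.6, 274 and 229 TPM in PK-1 cells and 29.7, 164 and 133 TPM in Panc-1 cells. MMP1, VEGFA and HBEGF were up in all 4 comparisons, the last of them named after its values were seen. CCND1, which encodes cyclin D1 of the G1 phase, measured 135, 103 and 46.7 TPM in PK-1 cells and 205, 67.3 and 37.2 TPM in Panc-1 cells. IVL, an epithelial differentiation gene, went from 25.6 to 7.48 and 3.46 TPM in PK-1 cells and was listed at 1 TPM in Panc-1 cells.

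The genes downstream of ATF4 and CHOP in the integrated stress response (8 genes), a response of which ATF3 is a known part, had higher medians than the other pathway lists in each comparison. With RARγi-1 in PK-1 cells 7 of 8 were past 2-fold up, GADD45B being the exception with a log2 fold change of 0.71 (6 of 8 after rescaling, when GADD45A became 0.95), and in the other 3 comparisons 8 of 8 were, with none down. The list medians were 2.43 and 3.19 in PK-1 cells and 2.71 and 3.21 in Panc-1 cells. DDIT3, which encodes CHOP, measured 48.9, 377 and 904 TPM in PK-1 cells and 80.8, 575 and 1070 TPM in Panc-1 cells. SESN2, a sestrin that restrains mTORC1, measured 17.8, 100.1 and 165 TPM in PK-1 cells and 23.4, 297 and 301 TPM in Panc-1 cells.

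**Figure D4:**
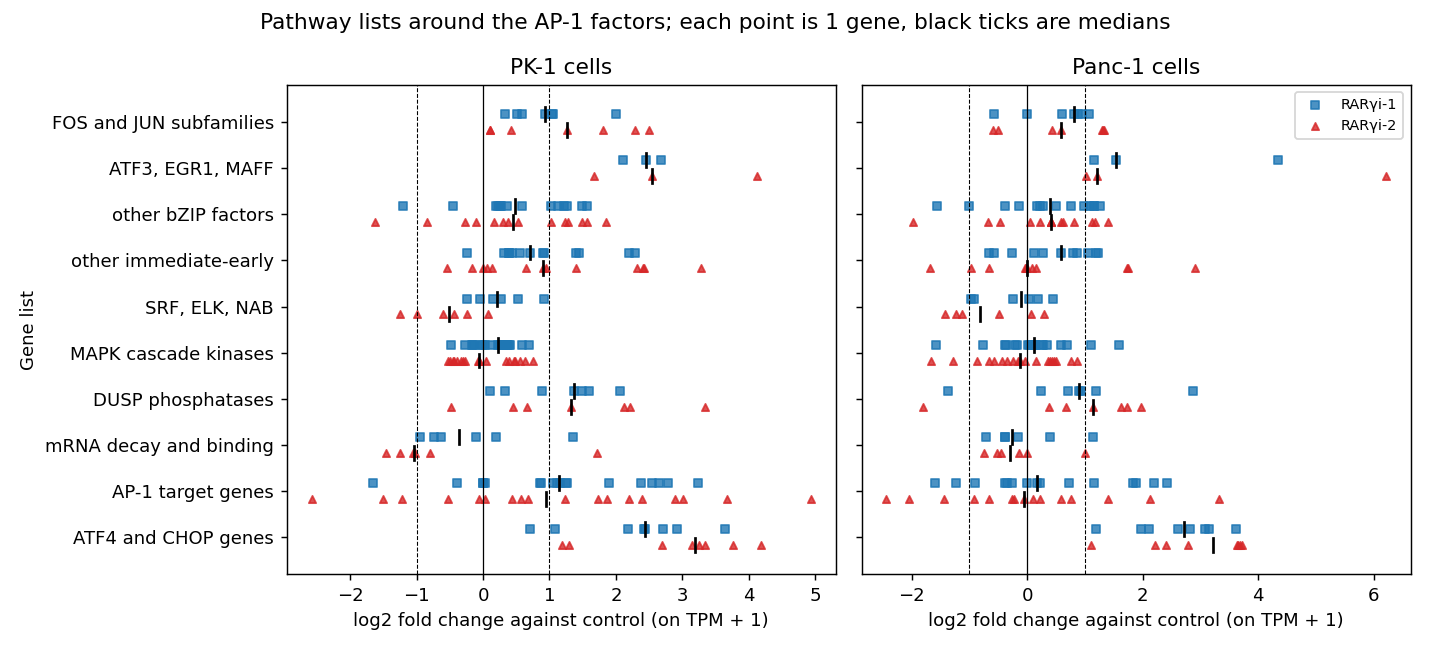
Log2 fold change of (TPM + 1) for the genes of each list above 1 TPM in PK-1 cells (left) and Panc-1 cells (right), with 1 point per gene, RARγi-1 as squares, RARγi-2 as triangles, black ticks at the list medians and dashed lines at 2-fold. The ATF4 and CHOP genes have medians from 2.43 to 3.21, and the PK-1 MAPK kinases all lie within 2-fold.

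The cell lines were checked against marker genes. KRT7, KRT8, KRT18, KRT19 and EPCAM were above 1 TPM in all 6 libraries, whereas CDH1 was listed at 1 TPM in the 3 Panc-1 libraries, and PTPRC, CD3E, PECAM1, VWF, DCN and INS in all 6. KRT7 was low in Panc-1 cells, at 4.19, 2.40 and 2.67 TPM, and measured 5663, 2297 and 2470 TPM in PK-1 cells. The summed level of the 6 epithelial markers was lower in every treated library, going from 22498 TPM in the PK-1 control to 13507 and 14127 TPM, and from 8419 TPM in the Panc-1 control to 1784 and 1485 TPM. Keratins made up most of that sum. CDH1 went the other way in PK-1 cells, at 170, 270 and 385 TPM, and EPCAM measured 578, 552 and 497 TPM in PK-1 cells and 13.4, 19.4 and 9.18 TPM in Panc-1 cells. The 8 markers of other cells, with 1 TPM counted for each gene at the lowest value, summed to 26.9, 112 and 89.9 TPM in PK-1 cells and 251, 283 and 245 TPM in Panc-1 cells, mostly from CD68, with PRSS1 at 1.06, 11.1 and 21.2 TPM in PK-1 cells. The part of these shifts in the values of the 10 factors was not tested. In bulk RNA, fewer cells expressing a gene and less of its RNA per cell cannot be told apart.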

How the data were processed

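RNA-seq libraries of PK-1 and Panc-1 cells (control, RARγi-1 and RARγi-2, 1 each) were prepared from total RNA with a stranded poly(A) kit. The authors deposited log2 TPM values per entry, with values under 1 TPM raised to 1 TPM (log2 of 0). The genome build is hg38 per the submitters' processing notes; the aligner, counter and annotation are not given in the sources used here. TPM holds no depth, so no interval was computed.

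Values were returned to TPM, and log2[(TPM + 1) treated / (TPM + 1) control] was computed within each line with Python 3.11.15, numpy 2.4.6 and pandas 2.3.3. Entries that exceeded 1 TPM in any library of a line were tested against a 2-fold threshold, with no p-values. For repeated symbols the entry with the highest mean was used. The spread was the median absolute deviation, scaled to a standard deviation, of RARγi-2 minus RARγi-1 over entries reaching 5 TPM. Members and lists were chosen with earlier results of these data known. Named genes were the 10 members, up to 2 genes per list and direction with the largest mean change among those reaching 10 TPM, and the 3 nearest genes of each member past 2-fold in all 4 comparisons; genes behind small counts (such as DUSP2, MAP3K5, MAPK11, NAB2 and GADD45B) were named after their values were seen. Gene positions are from GENCODE 29 and promoter sequences from RefSeq GRCh38.p14. Alternatives were other pseudocounts, thresholds and filters, rescaling, and summed repeated symbols. The script was tested on simulated data.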

Additional observations from a re-analysis of the deposited data

Results flagged for a closer look

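Among the 10 members, the genes that overlap them and the genes of the pathway lists, 10 genes had both PK-1 values on one side of the control and both Panc-1 values on the other. In each case the difference between the lines was not tested, since there is 1 library per condition. The share of all entries tested with this pattern was not computed, so the count of 10 has no background beside it. No minimum distance from the control was required, and values as small as 0.0010 counted. The treated libraries of a line share 1 control, so an unusual control library would move both values of that line in the same way. Values are log2 fold changes, RARγi-1 being given before RARγi-2. FOSL1 had 0.59 and 0.43 in PK-1 cells and -0.0076 and -0.50 in Panc-1 cells, the first Panc-1 value being almost no distance from the control. JUNB had 0.94 and 0.11 in PK-1 cells and -0.58 and -0.60 in Panc-1 cells, of which 0.11 lay within the spread of 0.41. HOOK2, which overlaps JUNB on the opposite strand, had 0.64 and 0.97 against -0.44 and -1.31. The widest gap was that of IL11, a cytokine of the AP-1 target list, with 2.79 and 3.01 in PK-1 cells and -0.38 and -0.67 in Panc-1 cells. Its PK-1 control value, 1.44 TPM, lay near the lowest recorded level. MAPK11, a p38 kinase, had 0.69 and 0.49 against -0.76 and -1.27, and KLF10 had 0.39 and 0.058 against -0.26 and -0.97. MAP2K1, the kinase of ERK, had -0.48 and -0.38 in PK-1 cells against 0.34 and 0.37 in Panc-1 cells, and ZFP36L1 had -0.11 and -1.46 against 0.39 and 0.0018. For MAPK8 (-0.15 and -0.30 against 0.049 and 0.16) and MAP3K11 (0.0010 and 0.041 against -0.38 and -0.44) the opposite directions were lost after rescaling, which took 0.049 to -0.045 and 0.0010 to -0.13.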

How the results depend on the processing

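No paired analysis was possible because each condition has 1 library and no replicate numbers; for the same reason no library could be left out. None of the 10 members and none of their medians changed sign under the alternatives run. For list genes the sign was checked after rescaling, which turned MAPK9, MAP3K11, CD44, EZR and DUSP4 in the PK-1 RARγi-1 comparison and NAB2, MAPK8, MAPK12 and MAPK14 in the Panc-1 RARγi-1 comparison, all from small positive values, the highest 0.10 for DUSP4, to values below 0. Without a pseudocount, 2 values of the other immediate-early genes were down over the 4 comparisons, in place of 1. With a pseudocount of 5 TPM the member medians with RARγi-2 were 1.44 in PK-1 cells and 0.68 in Panc-1 cells, in place of 1.74 and 1.12. The members then under 2-fold were JUN (0.99) and JUND (0.98) with RARγi-1 and FOSB (0.93) with RARγi-2 in PK-1 cells, and MAFF (0.97) with RARγi-1 and FOS (0.62) and EGR1 (0.73) with RARγi-2 in Panc-1 cells. At 5 TPM the values past 2-fold over the 4 comparisons were 11 up for the other bZIP factors in place of 19, 2 down for SRF, ELK and NAB in place of 4 (6 without a pseudocount, with 0.1 TPM or after rescaling), 0 up for the kinases in place of 2, and 1 down for the phosphatases in place of 2. At a 1.5-fold threshold 8 members were up with RARγi-1 and 1 down with RARγi-2 in Panc-1 cells. The same threshold gave 23 up and 4 down for the other immediate-early genes, 1 up and 8 down for SRF, ELK and NAB, 9 up and 6 down for the kinases and 10 down for the mRNA-binding proteins. At 3-fold only 1 member, ATF3, was up in each Panc-1 comparison. The lists then held 1 up and 2 down for the other bZIP factors, 9 up for the other immediate-early genes, 0 down for SRF, ELK and NAB, 1 up and 1 down for the kinases, 9 up and 1 down for the phosphatases, 1 up and 0 down for the mRNA-binding proteins, and 5 down for the AP-1 targets. Shares over all entries were not computed at 1.5-fold or 3-fold, nor with the other pseudocounts, so these counts have no background beside them. ATF3 in the Panc-1 RARγi-2 library ranked 1st of all entries with a pseudocount of 1 TPM and 2nd with the other pseudocounts. A filter at 5 TPM left FOS and FOSB out in Panc-1 cells. Changes of FOS and FOSB in Panc-1 cells rest on values near the lowest recorded level, and no depth is known to put an error on them.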
